A study of Mus musculus with 30 samples.

Results

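Opsins are receptors of 7 named genes here, Opn1sw, Opn1mw, Opn3, Opn4, Opn5, Rgr and Rrh, which were taken by their gene names in the annotation of the array. The array carried 8 probes for them, 1 each for 6 genes and a pair for Opn5, among 41174 probes for 28101 distinct names in all. The eye files hold no gene names, so each probe was matched there by its probe number. The values came from male adult wild-type (WT) mice and Period3 knockout (Per3-/-) littermates on a C57Bl/6J background. All had lived through 17 cycles of 3.5 h light and 3.5 h dark and were killed in light during the last cycle. RNA from whole eyes (7 WT and 7 Per3-/- mice) and from a block of hypothalamus around the optic chiasm (8 WT and 8 Per3-/- mice) was hybridised to 1 array per mouse and tissue. The Per3-/- allele is a functional knockout of the whole animal, in which a selection cassette took the place of exon 3 and of the intron after it. Both tissues are mixtures in which fewer cells of a type and less RNA per cell cannot be told apart.

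An opsin binds a vitamin A aldehyde, and light changes the shape of that aldehyde and so switches on a G protein. Opn1sw and Opn1mw are the short- and medium-wavelength pigments of cones. Opn4 is melanopsin, the pigment of the few retinal ganglion cells that signal light directly to the suprachiasmatic nucleus, the central clock in the hypothalamus. Opn5, or neuropsin, absorbs violet and ultraviolet light. Opn3, or encephalopsin, was first described in the brain. Rgr is an opsin of the pigment epithelium and Müller glia that turns spent aldehyde back to the form pigments use, and Rrh, or peropsin, lies in the pigment epithelium.

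Each value below is a log2 signal relative to the 75th percentile of its array, so 0 is the level below which 3 in 4 of an array's spots lie. Agilent's mark "well above background" was used to say whether a probe was detected. It was given to between 67.9% and 80.7% of probes on the 30 arrays. The labelled tissues carried their markers: all 7 retina, 6 lens, 4 cornea and 6 pigment epithelium genes measured were well above background on all 14 eye arrays. In the hypothalamus, 11 of 12 marker genes were well above background on all 16 arrays, Avp, Oxt and Hcrt among them. Detection alone did not separate the tissues. On all 16 hypothalami 3 retina, 3 lens, 3 cornea and 4 pigment epithelium genes were also well above background. The same held for 7 hypothalamus genes on all 14 eyes, Oxt and Hcrt among them. Between the tissues of WT mice, 10 of 12 hypothalamus genes were lower in the eye at limma adjusted p under 0.05. Six6 was higher there, by 3.51, and Vip did not pass. By the same test 6 of 7 retina, all 6 lens, all 4 cornea and 5 of 6 pigment epithelium genes were higher in the eye. Best1 of the pigment epithelium was lower there, at -1.75 (eye minus hypothalamus). Median summed signals, in multiples of the 75th percentile, were 229 in WT eyes and 1.33 in WT hypothalami for the retina genes. For the hypothalamus genes they were 7.61 and 192. A sum weighs bright genes most. The brightest of the retina list were Prph2 in WT eyes (log2 7.65) and Sncg in WT hypothalami (0.21). Sncg differed little between the tissues, by 0.20 in WT mice (limma adjusted p = 0.063). The hypothalamus of Per3-/- mouse 1 stood apart with a summed signal of 4 pituitary genes of 763 times the 75th percentile, WT mouse 5 had 40.0, and the other 14 arrays lay between 0.635 and 2.03. The only Per3 probe had differences (Per3-/- minus WT) of -0.45 in eyes and -0.51 in hypothalami, with limma adjusted p-values of 1.0 and 0.067. That probe begins at base 4401 of the transcript (chromosome 4, 150379256 to 150379315 of build mm9), far from the replaced exon, so it does not read the replaced stretch. Its hypothalamus means were -3.49 ± 0.148 (SD) in WT and -4.00 ± 0.210 in Per3-/- mice. The paper reports reduced Per3 there from these arrays. Whether the probe checks the labels was not tested.

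The 2 Opn5 probes are printed because they read different stretches and gave different signals, and the Opn1mw probe because it crosses a splice junction. Whether the stretch read accounts for the signals was not tested. Each is shown 5′ to 3′ as the array's annotation gives it, with its first 20 bases in capitals.
Opn5, lead probe A_52_P235550: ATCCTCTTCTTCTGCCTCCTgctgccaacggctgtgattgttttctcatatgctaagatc
Opn5, other probe A_51_P348792: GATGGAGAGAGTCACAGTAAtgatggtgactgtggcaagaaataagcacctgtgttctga
Opn1mw, probe A_51_P486748: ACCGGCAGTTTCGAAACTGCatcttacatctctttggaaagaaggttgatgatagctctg

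All positions are on mouse build mm9 as the hypothalamus files give them. The Opn5 lead probe matches the minus strand of chromosome 17 at 42729726 to 42729785 and begins at base 610 of its transcript. The other Opn5 probe lies at 42694403 to 42694462 and begins at base 1093, so the probes read different stretches of the gene. The Opn1mw probe spans 6920 bases of chromosome X, 71389017 to 71395936 on the plus strand, for its 60 bases and therefore crosses a splice junction. Opn1sw was read on chromosome 6 (29327033 to 29327092), Opn3 on chromosome 1 (177592823 to 177592882) and Rrh on chromosome 3 (129511743 to 129511802). Opn4 (35405835 to 35405894) and Rgr (37850828 to 37850887) both lie on chromosome 14. Those 5 probes are on the minus strand, and each covers 60 consecutive bases.

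In the eye, 7 of 8 opsin probes were well above background on all 14 arrays, against 67.7% of all probes, and only the second Opn5 probe was detected on none. The brightest was Rgr, with a log2 signal of 4.39 ± 0.111 (SD, n = 14), at a median percentile of 98.0 among the probes of an array. The Opn5 lead probe followed at 1.81 ± 0.582, then Opn1mw at 0.68 ± 0.180, Rrh at -0.46 ± 0.178 and Opn1sw at -1.84 ± 0.173. Opn4 was at -2.65 ± 0.105, near the middle of its arrays (median percentile 52.0), and Opn3 was the dimmest detected probe at -3.47 ± 0.245. The second Opn5 probe was at -7.59 ± 0.781. Each probe binds its target with its own strength, so this is an order of probe signals and not of transcript amounts.

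The lowest Rgr value, 4.19, was above the highest of the Opn5 lead probe, 3.24, and the lowest Opn5 value, 1.20, was above the highest of Opn1mw, 0.96. Opn1mw did not overlap Rrh (-0.87 to -0.25), nor Rrh Opn1sw (-2.17 to -1.59), nor Opn1sw Opn4 (-2.76 to -2.43), nor Opn4 Opn3 (-3.88 to -3.06). The values of each detected probe therefore kept 1 order on all 14 eye arrays, whichever the genotype.

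**Figure D1:**
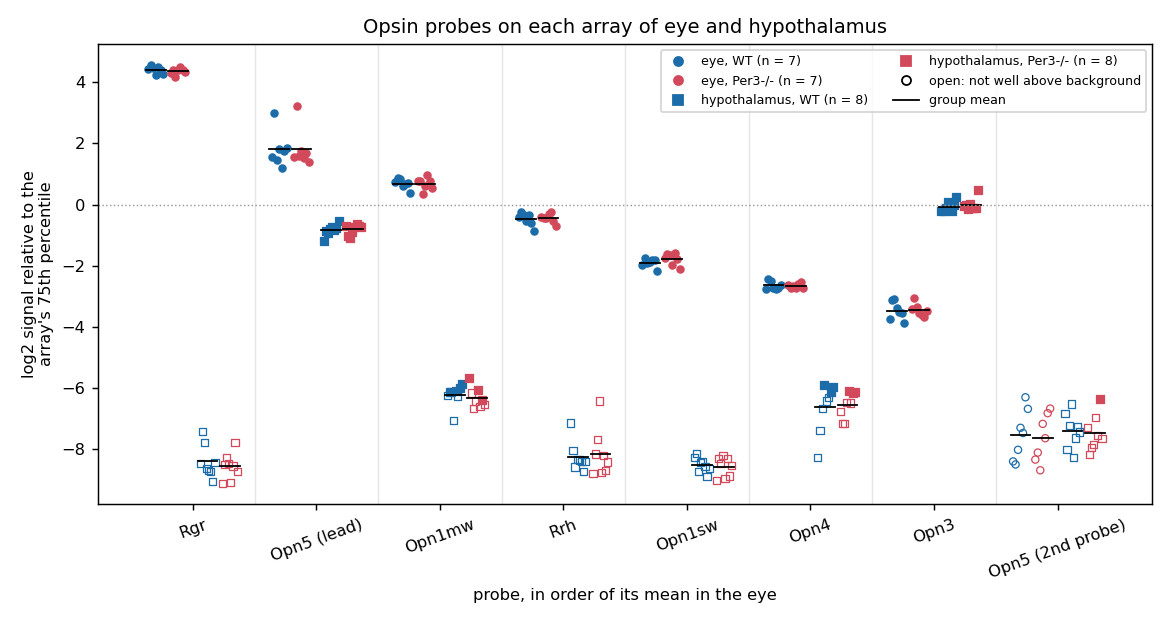
Log2 signal relative to the array's 75th percentile (y axis) of the 8 opsin probes (x axis, ordered by their mean in the eye) on each array of WT and Per3-/- eyes (circles) and hypothalami (squares), with group means as black lines and open symbols where the probe was not well above background. Blue and red symbols overlap for every probe, Opn3 is the only gene whose squares lie above its circles, and Rgr, Rrh and Opn1sw have open squares only.

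Among the cone pigments, Opn1mw in WT eyes was 0.75, 0.88, 0.82, 0.59, 0.66, 0.72 and 0.37 for mice 1, 3, 4, 5, 6, 7 and 8. In Per3-/- eyes it was 0.77, 0.77, 0.33, 0.62, 0.96, 0.78 and 0.54 for mice 2 to 8. The groups covered the same range, with WT mouse 8 and Per3-/- mouse 4 lowest. The difference between genotypes (Per3-/- minus WT) was 0.00 with a 95% confidence interval from -0.22 to 0.22. Opn1sw was -1.99, -1.75, -1.90, -1.88, -1.81, -1.81 and -2.17 in the same WT eyes and -1.74, -1.63, -1.64, -1.99, -1.59, -1.79 and -2.10 in the Per3-/- eyes. In the Per3-/- group mice 2, 3, 4 and 6 lay above all WT eyes, and the rest overlapped. Opn1sw had the largest difference between genotypes of the detected opsins in the eye, 0.12 ± 0.093 (standard error; limma adjusted p = 1.0). It was positive on each of the 4 slides, by 0.045 to 0.25.

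Melanopsin, Opn4, varied little between eyes. In WT eyes it was -2.75, -2.43, -2.49, -2.72, -2.76, -2.73 and -2.64, and in Per3-/- eyes -2.64, -2.72, -2.68, -2.74, -2.59, -2.54 and -2.73, in the same order of mice. All Per3-/- values fell inside the WT range. The genotypes differed by -0.02, with an interval from -0.16 to 0.13.

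The opsins of the pigment epithelium were also level between genotypes. Rgr ran from 4.25 to 4.57 in WT eyes (median 4.45) and from 4.19 to 4.50 in Per3-/- eyes (median 4.39), a difference of -0.06 with an interval from -0.21 to 0.09. Rrh ran from -0.87 to -0.25 in WT eyes (median -0.42) and from -0.70 to -0.26 in Per3-/- eyes (median -0.43), a difference of 0.03 with an interval from -0.18 to 0.25. The mice numbered 8 had the lowest Rrh in both genotypes.

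Opn3 was -3.75, -3.14, -3.10, -3.38, -3.53, -3.56 and -3.88 in WT eyes and -3.41, -3.06, -3.36, -3.56, -3.63, -3.69 and -3.50 in Per3-/- eyes. Mice 3 of both genotypes and WT mouse 4, which were on 1 slide, were highest. The genotypes differed by 0.02 (interval -0.27 to 0.31).

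No opsin probe passed the test between genotypes in either tissue. In the eye, 0 of 8 had an adjusted p under 0.05 and 0 an unadjusted p under 0.05 by limma, and the methods' t-test gave the same counts of 0. The background was 0.0194% of all probes (8 of 41174) after adjustment and 1.80% before it. The values of WT and Per3-/- eyes overlapped for all 8 probes, where 0.0729% of all probes did not. Over the 7 detected probes the differences ran from -0.06 to 0.12 with a median of 0.02, and the median over all probes was 0.00. The 95% intervals of Opn1sw, Opn1mw, Opn3, Opn4, Rgr and Rrh all lay between -0.27 and 0.32. Their widths differed, for example from -0.16 to 0.13 for Opn4 and from -0.27 to 0.31 for Opn3. How large a difference had to be to pass after adjustment was not tested. For the Opn5 lead probe the interval was wider, from -0.64 to 0.67.

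**Figure D2:**
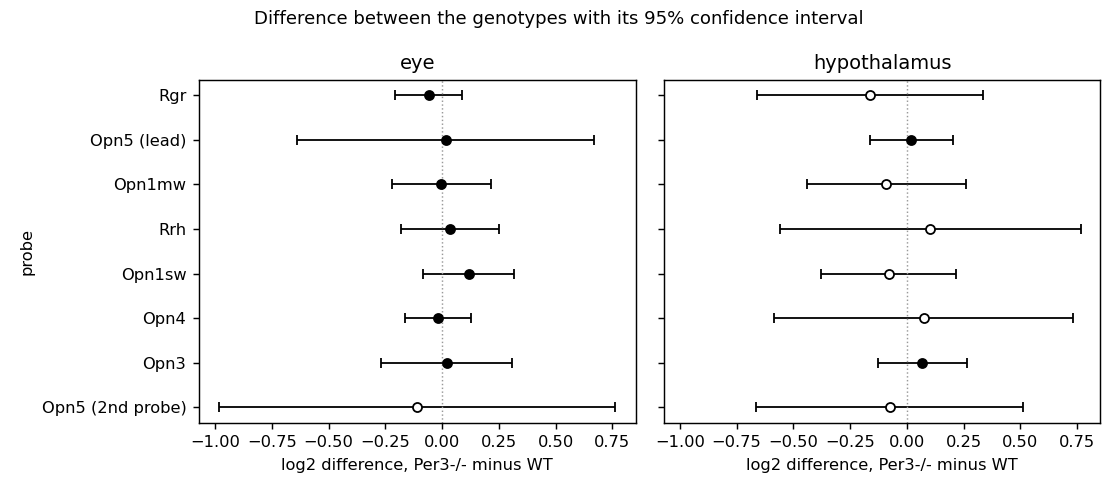
Log2 difference between genotypes (x axis, Per3-/- minus WT, points) with its 95% confidence interval from limma (bars) for the 8 opsin probes (y axis) in eye (left, 7 arrays a genotype) and hypothalamus (right, 8 arrays a genotype). Filled points mark probes detected on all arrays of that tissue. Every interval holds 0, and those of Opn3 and the Opn5 lead probe in the hypothalamus are among the narrowest.

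In the hypothalamus, 2 of 8 probes were well above background on all 16 arrays, Opn3 and the Opn5 lead probe, against 65.9% of all probes. Opn1mw was detected on 4 of 8 WT and 3 of 8 Per3-/- arrays, with values from -7.06 to -5.68. Opn4 was detected on 3 of 8 arrays of each genotype, from -8.28 to -5.92, and both genes thus lay around the limit of detection. The second Opn5 probe was detected on 1 Per3-/- array. Opn1sw, Rgr and Rrh were detected on 0 of 16. By the less strict mark of a signal significant against the local background, Opn1mw was positive on 16, Opn4 on 15, the second Opn5 probe on 14, Rgr on 5, Rrh on 3 and Opn1sw on 1 of 16 arrays.

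Opn3 in the hypothalamus was -0.22, -0.21, -0.10, 0.08, -0.11, -0.20, -0.03 and 0.26 in WT mice 1 to 8 and -0.04, -0.02, -0.16, 0.03, -0.10, -0.10, -0.10 and 0.49 in Per3-/- mice 1 to 8. Mouse 8 was the highest of both genotypes, and the groups otherwise overlapped. The genotypes differed by 0.07 (interval -0.13 to 0.26, limma adjusted p = 0.99), and by 0.00 without Per3-/- mouse 8 but with WT mouse 8 kept. Leaving out WT mouse 8 instead made the difference larger.

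The Opn5 lead probe in the hypothalamus was -1.20, -0.88, -0.92, -0.79, -0.72, -0.84, -0.78 and -0.55 in WT mice 1 to 8 and -0.70, -1.02, -1.08, -0.89, -0.75, -0.64, -0.71 and -0.73 in Per3-/- mice. The Per3-/- values lay within the WT range. The difference was 0.02 with an interval from -0.16 to 0.20.

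Over the 8 probes in the hypothalamus the differences between genotypes ran from -0.16 to 0.10, and 0 passed at an adjusted or an unadjusted p of 0.05 by limma or the methods' t-test (0.0413% and 2.80% of all probes by limma). The 2 genotypes overlapped for all 8 probes, where 0.0461% of all probes did not. Leaving out the hypothalami of Per3-/- mouse 1 and WT mouse 5, the arrays with the high pituitary signal, left the count at 0. The test of whether the genotype difference itself differed between eye and hypothalamus also called 0 of 8 probes, against 0.00486% of all, with estimates from -0.09 to 0.20.

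The tissues differed far more than the genotypes. In WT mice 6 of 8 opsin probes were higher in the eye and 1, Opn3, was lower, at adjusted p under 0.05 by limma, and Per3-/- mice gave the same counts. Of all probes, 40.3% were called higher and 34.3% lower in the eye in WT mice, and 41.5% and 34.3% in Per3-/- mice, so a call alone says little here and the sizes are given. The median difference over all probes was 0.11 in WT and 0.19 in Per3-/- mice. Each slide held arrays of 1 tissue, and slide and tissue cannot be told apart.

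Opn3 went from -3.48 ± 0.292 (SD, n = 7) in WT eyes to -0.07 ± 0.167 (n = 8) in WT hypothalami, a difference (eye minus hypothalamus) of -3.41 ± 0.114 (standard error), or 10.6-fold, with a limma adjusted p of 1.8e-21. In Per3-/- mice it was -3.46 ± 0.114, or 11-fold. The highest of the 14 eyes, -3.06, was far below the lowest of the 16 hypothalami, -0.22. The Opn5 lead probe went the other way: it was higher in the eye by 2.64 ± 0.217 in WT mice and by 2.63 ± 0.217 in Per3-/- mice, 6.2-fold in both. Its lowest eye, 1.20, was above its highest hypothalamus, -0.55. Without the eyes of the mice numbered 3, which are described below, the differences were 2.44 and 2.40.

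Rgr was not well above background in any hypothalamus. Set against the lowest signal that was well above background on each array, or the probe's own signal where that was higher, it was at least 1944-fold higher in the eye in WT mice and at least 1976-fold in Per3-/- mice. By the same bound Rrh was at least 65.3-fold and 70.8-fold higher in the eye, and Opn1sw at least 24.4-fold and 28-fold. For all 3, the fitted adjusted p by limma was 8.0e-22 or smaller in WT mice. Opn1mw was detected on 7 hypothalami and Opn4 on 6. With their undetected arrays set to the same bound, Opn1mw was at least 115-fold higher in the eye in WT and 122-fold in Per3-/- mice, and Opn4 at least 12-fold and 12.8-fold. These sizes depend on how dim spots were treated. The measured means differed in WT mice by 6.91 ± 0.144 for Opn1mw and 4.00 ± 0.244 for Opn4 on the log2 scale. With normexp background correction the WT differences were 4.86 for Opn1mw, 1.86 for Opn4 and -2.73 for Opn3, in the same directions. Normexp was run on median spot signals in the eye and on mean spot signals in the hypothalamus. Its tissue differences therefore also hold that mismatch, whose size was not tested. The second Opn5 probe was well above background on 0 of 14 eyes and 1 of 16 hypothalami and has no fold.

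The genes around the opsins were grouped in 5 lists. Each gene was read by its probe with the highest mean over the eye arrays. That choice tilts the counts and medians below toward the eye, by an amount that was not tested. Where a gene was not detected on some or all WT hypothalami, those arrays were set to the bound used above for Rgr, so its difference is a lower bound. Of 19 rod phototransduction genes on the array, which carry the light signal of rods to the closing of the cation channel, 18 were higher in WT eyes than WT hypothalami and 1 was lower by limma. Only 6 of the 19 were detected on all 8 WT hypothalami, and the median difference with the others at their bound was 10.20. The exception was Rgs9, which speeds the shut-off of the G protein, at -2.25 ± 0.111. Of 9 cone genes, 8 were higher in the eye and 1 lower (median 6.53 with the 6 genes not detected on all WT hypothalami at their bound). The lower one was Slc24a2, a sodium, calcium and potassium exchanger, at -3.28 ± 0.098.

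Genes of melanopsin signalling and its ganglion cells were mostly higher in the hypothalamus: 8 of 12 were lower in the eye and 4 higher, with a median of -1.04. Adcyap1, the neuropeptide PACAP, differed by -3.31 ± 0.096, the cation channel gene Trpc7 by -2.21 ± 0.122, Plcb4, a phospholipase, by -2.0 ± 0.110 and the G protein gene Gnaq by -1.60 ± 0.069. The arrestins Arrb1 and Arrb2 differed by -1.53 ± 0.064 and -1.11 ± 0.070. These genes serve many receptors in the brain. The 4 that were higher in the eye, named after their values were seen, were the G protein gene Gna14 at 3.48 ± 0.245 and 3 transcription factors of retinal ganglion cells. Of these Pou4f1 was at 2.26 ± 0.110, while Eomes, detected on 4 of 8 WT hypothalami, was at 2.39 or more and Pou4f2, detected on 0 of 8, at 0.44 or more. Pou4f2 was detected on 3 of 7 WT eyes. In the visual cycle list 12 of 14 genes were higher in the eye and 1 lower (median 4.05, with 4 genes at their bound), the lower one being Rbp4, the retinol carrier of blood, at -1.23 ± 0.339. Of 9 regulators of opsin genes, 7 were higher in the eye and 0 lower (median 4.19, with 2 genes at their bound), and the others, Rxrg and Thrb, had nearly the same signal in both tissues, 2.15 and 2.15 for Rxrg and -0.39 and -0.41 for Thrb.

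**Figure D3:**
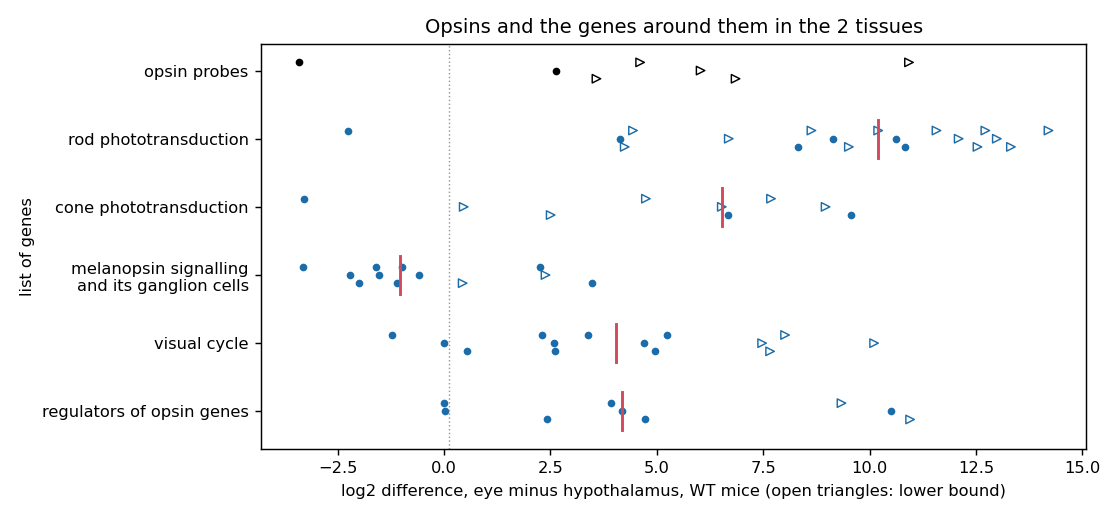
Log2 difference between eye and hypothalamus in WT mice (x axis, eye minus hypothalamus) of the 7 opsin probes detected in the eye (black) and of the genes of 5 lists (blue, 1 probe a gene), with list medians as red lines and the median over all probes, 0.11, as a dotted line. Open triangles are lower bounds, for probes not detected on all 8 WT hypothalami, and make up 13 of the 19 rod genes and 5 of the 7 opsin probes, while 8 of the 12 melanopsin genes lie below 0.

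Between genotypes, 0 genes of the 5 lists passed in either direction in either tissue at an adjusted p of 0.05 by limma. The lists held 19 rod, 9 cone, 12 melanopsin, 14 visual cycle and 9 regulator genes. At an unadjusted p of 0.05 the eye had 0, where 1.80% of all probes passed. The hypothalamus had 2, 1 each in the rod and melanopsin lists, where 2.80% of all probes passed. Medians in the eye were -0.04 for the rod genes, -0.03 for the cone genes, 0.00 for the melanopsin list, -0.04 for the visual cycle and 0.00 for the regulators, beside 0.00 for all probes. The largest rod differences in the eye were -0.13 ± 0.070 for Pde6a, -0.12 ± 0.066 for Pdc and -0.11 ± 0.126 for Rgs9. Among cone genes they were -0.21 ± 0.115 for Slc24a2, -0.11 ± 0.121 for Gnb3 and -0.10 ± 0.115 for Gnat2. In the melanopsin list Eomes was at 0.16 ± 0.138, Trpc7 at -0.13 ± 0.146 and Trpc6 at 0.11 ± 0.232. In the visual cycle Rbp4 was at 0.65 ± 0.478, Stra6 at -0.18 ± 0.153 and Abca4 at -0.17 ± 0.124, and among regulators Rorb was at -0.26 ± 0.199, Prdm1 at 0.17 ± 0.113 and Thrb at -0.13 ± 0.082. Each of these 15 had an adjusted p of 1.0.

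The eye arrays lay on 4 slides, which for each mouse number from 3 on held both genotypes. The limma F test over slides called 2 of 8 opsin probes at adjusted p under 0.05, against 15.5% of all probes. They were the second Opn5 probe (adjusted p = 0.0001), whose slide means ran from -8.38 to -6.63 without reaching detection, and Opn3 (adjusted p = 0.047), with slide means from -3.66 to -3.16. Without the eyes of the mice numbered 3, 1 of 8 was called, and with normexp background correction 0 of 8 were (2 of all probes).

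The Opn5 lead probe stood out in the eyes of the mice numbered 3. It was 2.99 in WT mouse 3 and 3.24 in Per3-/- mouse 3, while the other 12 eyes lay between 1.20 and 1.85. The excess was 1.52 on average, or 2.87-fold. These arrays were on slide 2, and the other 2 arrays of that slide, both mice numbered 4, were at 1.46 and 1.58. In the hypothalami with the same numbers the probe was unremarkable, at -0.92 and -1.08. The 6 other lead probes did not do this: Rgr, for example, was 4.57 and 4.39 there and 4.19 to 4.51 elsewhere.

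By the rule that names the 3 genes whose probe followed each opsin best over the 14 eye arrays, after the mean of each genotype was taken out, the Opn5 lead probe was matched by Mymk, a muscle cell fusion protein (r = 0.98), Rusc1 (r = 0.98) and Msi1, an RNA-binding protein (r = 0.97). Without the mice numbered 3, r was 0.78, 0.91 and 0.89. In all, 45 of 27884 probes detected on every eye array (0.161%) were more than 0.5 above all other eyes in both mice 3, and 5 were as far below. Of the 45, 4 were for olfactory receptors, a count that cannot be read without their share among all 27884, which was not computed. The first 30 bases of the 3 matching probes are shown, 5′ to 3′ with 20 bases in capitals, for comparison with the Opn5 lead probe.
Mymk: TCCTGCTGTCTCTCCCAAGGtacttcctat
Rusc1: CTCCTCACTCTGTCTCTAGCccttcttgcc
Msi1: TGCCTCTCTCCCTGGTCGCTtttatttatt

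The Mymk probe lies on chromosome 2 (26917594 to 26917653), the Rusc1 probe on chromosome 3 (88887995 to 88888054), both on the minus strand, and the Msi1 probe on chromosome 5 (115904030 to 115904089, plus strand). Their first 20 bases hold 14, 16 and 16 pyrimidines (C or T), and those of the Opn5 lead probe 18. The second Opn5 probe has 5 and the other opsin probes between 5 and 11. Of the 45 probes, 34 had at least 15 (75.6%), against 3.84% of all probes detected on every eye array. Of the 1070 probes with such a start 3.18% were among the 45, and of the others 0.0410%. The median excess in mice 3 was -0.02 for probes with it and -0.03 for the rest. No other probe of the array shares more than 14 bases in a row with the Opn5 lead probe. The 45 probes were chosen by their values, so these are descriptions with no test, and the part of the probe's sequence in the result was not tested.

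**Figure D4:**
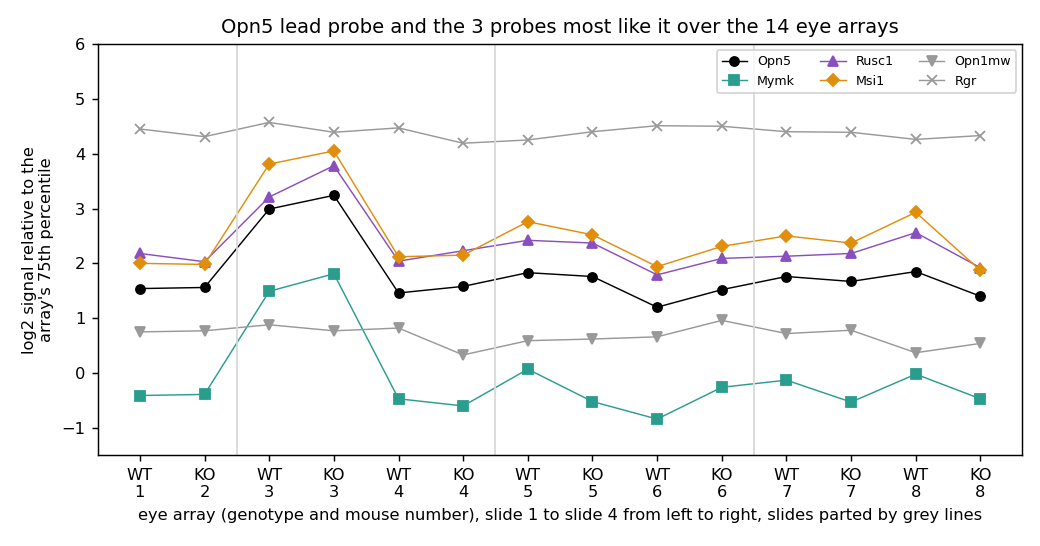
Log2 signal relative to the array's 75th percentile (y axis) of the Opn5 lead probe and of the Mymk, Rusc1 and Msi1 probes on the 14 eye arrays in order of slide (x axis, genotype and mouse number), with the Rgr and Opn1mw lead probes in grey. The 4 coloured and black lines peak together in both mice numbered 3, where Opn5 is 2.99 and 3.24, and the grey lines do not.

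The other opsins were followed by other genes. Opn1mw was matched by Ufsp2 (r = 0.91), Cnga1, the rod channel subunit (r = 0.90), and an unnamed transcript (r = 0.88). Rgr was matched by Ociad1 (r = 0.90), Rlbp1, the retinaldehyde-binding protein of the same cells (r = 0.88), and Anapc10 (r = 0.88). Opn1sw was matched by Dnajc5, Afg3l1 and Sec14l1 (r = 0.93, 0.92 and 0.92), Opn3 by Rccd1, Gtsf1 and Mturn (0.92, 0.89 and 0.88), Opn4 by Armc9, Tpm1 and Tube1 (0.91, 0.90 and 0.89), and Rrh by Stag1, Ap3m2 and Cir1 (0.93, 0.93 and 0.93). These are the best of 27883 probes over 14 arrays that share slides and scaling, and they are given with no test.

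Between the 7 lead probes themselves, 42 relations were computed over the eyes, 21 in each genotype with n = 7. After Benjamini-Hochberg adjustment 0 passed by exact two-sided permutation of Pearson's r or Spearman's rank correlation. Before adjustment 5 had an exact p under 0.05, all positive. The highest was Opn1mw with Rrh in WT eyes (r = 0.89, exact p = 0.012, adjusted p = 0.20; Spearman's rank correlation = 0.82, exact p = 0.034, adjusted p = 0.67). Without the 2 eyes farthest from the median of Opn1mw its r was 0.44. With normexp background correction r was 0.97 (n = 7, exact permutation, adjusted p = 0.0083; Spearman's rank correlation = 1, adjusted p = 0.017) and 0.96 without those 2, so the relation depends on the background correction. Rgr with Rrh in WT eyes had r = 0.85 (exact p = 0.011, adjusted p = 0.20; Spearman's rank correlation = 0.86, exact p = 0.024, adjusted p = 0.67) and kept 0.93 without the 2 farthest. With slide means taken out, r was 0.90 and 0.91 over the 6 WT eyes that shared a slide. Those eyes lay on 3 slides, so few independent values remain, and over all 42 relations such r ran from -0.77 to 0.97. In Per3-/- eyes r was lower, 0.41 for Opn1mw with Rrh and 0.44 for Rgr with Rrh, and with normexp 0.55 and -0.30. Opn1mw with Rgr had an exact permutation p under 0.05 in both genotypes. Its r was 0.82 in WT and 0.87 in Per3-/- eyes (adjusted p = 0.20 in both), and with normexp 0.83 and 0.19.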

How the data were processed

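Agilent 4x44K single-colour arrays of eye and hypothalamus were read from the authors' deposited files, whose intensity columns (processed signal) were made with Feature Extraction 10.7.1.1, per the file headers; the authors used GeneSpring 12. The processed signals are background-subtracted. Here control and flagged spots were left out, each spot was divided by its array's 75th percentile, and the log2 values were averaged per probe (41174 probes). The precision is limited by the number of arrays: 7 per genotype in the eye, 8 in the hypothalamus. The deposited series matrix holds the authors' log2 values, on the same scale and centred on each probe's median within a tissue; it served as an alternative.

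Probe names came from the hypothalamus files, updated through RefSeq accessions or symbols for 32834 probes; 8340 kept the file's name. Genotypes were compared within each tissue, tissues and their interaction over 4 groups, and slides within the eye, with limma 3.58.1 in R 4.3.3 and Benjamini-Hochberg adjustment over all probes; the script was tested on simulated data. p-values measure the spread between mice. A gene's lead probe is the one with the highest mean log2 signal over the eye arrays. Named were all opsin probes, the 3 genes of each pathway list with the largest genotype difference among those detected in the eye, list genes detected in all hypothalami and at least 2-fold higher there, and the 3 genes most like each opsin. The members and lists were chosen with earlier results of these data known. Rdh8 (visual cycle), Rom1 (retina), Pou1f1 (pituitary) and Kcnj13 (choroid plexus) were listed but not found on the array. Of the cornea, lens, pigment epithelium, retina, hypothalamus, pituitary and choroid plexus marker lists, 0 genes passed between genotypes in either tissue. Summed signals of 4 choroid plexus genes ran from 2.08 to 13.0 in the hypothalamus.

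WT and Per3-/- eye arrays of the same mouse number deviated together (r from 0.11 to 0.63 over 6 numbers, all above 0.1). Those pairs also shared slides. Arrays of different numbers on 1 slide were not compared, so a shared number cannot be told from a shared slide. In the hypothalamus 3 of 8 correlations were above 0.1. That an eye and a hypothalamus of 1 genotype and number come from 1 mouse is not stated in the sources used here; the replicate block between tissues treated them so. Alternatives were quantile normalization, normexp with an offset of 50, a filter on dim probes, slide and replicate blocks, the methods' t-test and leaving out arrays. WT mouse 2 and Per3-/- mouse 1 had no eye array analysed here.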

Additional observations from a re-analysis of the deposited data

Results flagged for a closer look

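In 32 groups of arrays (8 probes by 4 groups), 5 arrays stood far from the rest of their group, where chance gives about 1 in 20. The Opn5 lead probe was 2.99 in the eye of WT mouse 3 (other WT eyes 1.20 to 1.85) and 3.24 in that of Per3-/- mouse 3 (others 1.40 to 1.76). Opn3 was 0.49 in the hypothalamus of Per3-/- mouse 8, where the other Per3-/- mice lay between -0.16 and 0.03. Opn1mw was -7.06 in the hypothalamus of WT mouse 4, with the others at -6.27 to -5.88 and 4 of the 8 well above background, and Rrh was -7.15 in that of WT mouse 1, where the others were at -8.74 to -8.04 and 0 of 8 were well above background. For both, that array's value was itself not well above background.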

How the results depend on the processing

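The genotype calls did not move: 0 of 8 probes passed in either tissue under quantile normalization, normexp, the authors' log2 values, the slide block, the replicate block, the methods' t-test and each omission of an array, a range of 0 to 0. The filter on dim probes left 7 of the 8 to test in the eye and 2 in the hypothalamus, and 0 passed. The replicate block turned the sign of Opn3 in the eye (-0.03) and changed no call. Signs of differences near 0 did turn. With normexp they were, in the eye, 0.14 for Opn4, 0.41 for the second Opn5 probe and -0.01 for the Opn5 lead probe, and in the hypothalamus -0.17 for Opn4 and -0.16 for Rrh. Without the eyes of the mice numbered 3, chosen after seeing the data, they were 0.03 for Opn4, 0.01 for Opn1mw and -0.02 for the Opn5 lead probe. Leaving out 1 array at a time, the eye differences ran from -0.04 to 0.02 for Opn4, -0.27 to 0.09 for the second and -0.22 to 0.21 for the lead Opn5 probe, -0.06 to 0.06 for Opn1mw, -0.05 to 0.08 for Opn3 and -0.03 to 0.08 for Rrh. In the hypothalamus they ran from -0.16 to 0.18 for Opn4, -0.24 to 0.05 for the second and -0.03 to 0.06 for the lead Opn5 probe, 0 to 0.11 for Opn3 and -0.14 to 0.26 for Rrh.

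Between tissues, 7 probes kept their direction and call in all alternatives, with smaller differences under normexp. Normexp used median spot signals in the eye and mean spot signals in the hypothalamus, so its tissue values also hold that mismatch. The second Opn5 probe was well above background on 1 hypothalamus array only. Its difference went to 0.13 in WT and 0.76 in Per3-/- mice with normexp, and to 0.04 in WT mice without the eyes numbered 3. With quantile normalization it went to -0.79 in WT and -0.80 in Per3-/- mice, where it was called. The slide count of 2 went to 0 with normexp, to 1 with the filter and to 1 without the eyes numbered 3, and the count of relations from 0 to 1 with normexp (Opn1mw with Rrh in WT eyes). With slide means removed, 28 of 42 relations were positive and no count is given, because few independent values remain. The filter tested fewer probes; the other causes were not tested. Whole-probe counts between genotypes fell from 8 to 1 in the eye and from 17 to 5 in the hypothalamus with the replicate block, and from 8 to 4 and 17 to 10 with normexp. The authors' log2 values, centred within a tissue, cannot compare tissues. Probes near background have only bounds in the hypothalamus.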
